A study of Arabidopsis thaliana with 18 samples.

Results

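The comparison set detached leaf explants from 15-day-old seedlings against explants from 12-day-old seedlings of Arabidopsis thaliana, each after 1 day of culture. Its 6 libraries, of 18 in the series, were taken by their titles: 3 from 12-day and 3 from 15-day explants. All plants were of the wild-type accession Col-0, the common laboratory strain of this plant. The explants were first-pair rosette leaves of seedlings raised at 22 °C under continuous light on half-strength Murashige and Skoog medium with 1% sucrose, then kept for 1 day on B5 medium without sucrose. A further 2 groups of 3 libraries, from intact first-pair leaves of 12 and 15 days taken before culture, served to size the age difference, and the 2 groups of 9-day leaves entered only the estimate of the spread. Polyadenylated RNA from whole leaves was sequenced, so in every result fewer cells of a type and less RNA per cell cannot be told apart.

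A detached Arabidopsis leaf on hormone-free medium responds to wounding with jasmonate and stress signalling and can later form roots from cells near the vein at the cut, a capacity that declines as leaves age. A leaf pair of this kind first grows by cell division and then by expansion, and division stops from the tip towards the base. Ribosome production, the cell cycle, photosynthesis, defence and senescence programmes all change with leaf age in intact plants. The comparison bears on how much of the age difference was still present after a day in culture.

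The 6 cultured libraries held 30193080 to 49025983 expected counts each, and the 6 intact ones 29664089 to 41217308. RBCS1A, a small subunit of Rubisco and a leaf marker, stood at 9039 to 14870 CPM (counts scaled to library size) in the cultured libraries, while the meristem genes WUS and CUC1 and the root genes EXPA7 and RHD6 were at or near 0. Other meristem and boundary genes (STM, KNAT1, CUC2, CUC3 and CLV3) had at most 4 counts in a library, KNAT2 had 1 to 17 and KNAT6 had 9 to 25. The root genes COBL9, CASP1 and CASP2 had at most 2 counts in a library. NRT2.1, of the nitrate list and also a root marker, had 96, 73 and 26 counts in 12-day explants. In 15-day explants it had 28, 38 and 22. The root list held PYK10, a beta-glucosidase of endoplasmic reticulum bodies, at 11.9 to 26.1 CPM in 12-day and 56.9 to 67.1 CPM in 15-day explants, and its part in other results was not tested. Of 10 vascular and 10 leaf polarity markers, 2 and 3 were lower at 15 days without overlap (12.8% of all genes), and 0 higher. The vascular marker XCP1 was at 22.5 CPM in 12-day replicate 3 and at 3.44 to 5.25 CPM in the other explants. For XCP2 these values were 39.6 and 12.3 to 18.8 CPM. The leaf marker YAB1 was at 13.3, 8.58 and 6.58 CPM against 4.89, 5.46 and 5.88 CPM, and AS1 overlapped. The part of tissue make-up in other results was not tested. Replicate 2 of both intact groups stood apart, with touch and early stress genes 1.84 (12 days) and 1.67 (15 days) log2 units above their group means at the median. Explants also spread in these genes, from 1.58 above to 1.73 below the group mean in 12-day replicates 1 and 3. In the cultured libraries the summed level of those 18 genes overlapped between the ages, at 544 to 2030 CPM in 12-day and 960 to 1870 CPM in 15-day explants. No label says that replicates came from separate sowings, and the p-values then reflect only sample-to-sample spread, which may be technical.

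The promoters of 6 genes are shown because the results below turn on the groups they belong to. The cyclins and ribosomal protein genes were those with the largest absolute fold changes among list members with a match and no overlapping neighbour. That they hold a match was thus fixed by the choice. Each run is the 200 bases just before the annotated gene start on the TAIR10.1 build (sequence and annotation from RefSeq), read 5′ to 3′ on the gene's strand. In the mitotic cyclins CYCB1;2 and CYCB1;3, capitals mark the core CNAACGG of the M-phase-specific activator (MSA) element, which MYB3R factors recognise. KNOLLE was searched for the same core and has no capitals, since no match was found. No motif searched is contained in another. In the ribosomal protein genes RPS6A and RPL3A the capitals mark the site II element TGGGCC, and in the jasmonate repressor JAZ8 the G-box CACGTG, all searched on both strands.
CYCB1;2 (chr5:1861704-1861903, minus strand): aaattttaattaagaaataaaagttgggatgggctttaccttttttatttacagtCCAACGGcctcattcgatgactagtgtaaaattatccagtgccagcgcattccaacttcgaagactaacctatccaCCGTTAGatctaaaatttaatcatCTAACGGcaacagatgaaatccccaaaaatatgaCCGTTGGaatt
CYCB1;3 (chr3:3627274-3627473, minus strand): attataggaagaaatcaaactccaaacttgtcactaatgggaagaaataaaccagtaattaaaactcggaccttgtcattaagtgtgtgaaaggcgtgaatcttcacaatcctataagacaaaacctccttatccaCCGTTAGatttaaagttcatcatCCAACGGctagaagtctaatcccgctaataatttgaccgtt
KNOLLE (chr1:2711001-2711200, minus strand): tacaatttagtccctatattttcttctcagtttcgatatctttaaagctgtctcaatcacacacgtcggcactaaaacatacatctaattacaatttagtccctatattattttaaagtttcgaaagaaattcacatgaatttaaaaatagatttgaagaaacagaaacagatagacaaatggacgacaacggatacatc
RPS6A (chr4:15347805-15348004, minus strand): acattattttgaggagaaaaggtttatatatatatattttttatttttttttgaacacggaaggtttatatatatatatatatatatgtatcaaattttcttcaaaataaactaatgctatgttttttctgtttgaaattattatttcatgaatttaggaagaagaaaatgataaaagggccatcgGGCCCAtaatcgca
RPL3A (chr1:16266353-16266552, plus strand): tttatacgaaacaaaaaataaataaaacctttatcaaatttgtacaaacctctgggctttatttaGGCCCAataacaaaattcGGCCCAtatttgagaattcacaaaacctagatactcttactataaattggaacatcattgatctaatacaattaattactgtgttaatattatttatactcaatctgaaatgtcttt
JAZ8 (chr1:10596152-10596351, plus strand): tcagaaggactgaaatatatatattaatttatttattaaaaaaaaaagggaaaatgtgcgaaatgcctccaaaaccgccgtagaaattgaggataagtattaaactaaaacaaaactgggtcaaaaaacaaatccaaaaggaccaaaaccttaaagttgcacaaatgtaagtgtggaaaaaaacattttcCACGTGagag
The MSA core was found in 11 of 27 promoters of the mitosis list (40.7%) and in 3.79% of 27444 windows of the same length before all nuclear coding genes. It was in 0 of the 30 genes called lower in explants, CDC20.1 and KNOLLE included. KNOLLE had no match in this window. Site II was found in 13 of 22 ribosomal protein promoters (59.1%), in 10 of 18 DNA replication promoters (55.6%) and in 12.6% of all windows. The telo box AAACCCT, also searched, was in 3 of 22 ribosomal protein promoters (13.6%) and 6.15% of all windows. The G-box was in 5 of 23 jasmonate response promoters (21.7%), 7 of 39 photosystem promoters (17.9%) and 5.64% of all windows. The windows include those that overlap a neighbouring gene, and a match is a description of the letters only.

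How far the 2 ages differed after culture was first measured over all 20952 genes tested. By the quasi-likelihood test of edgeR, adjusted by Benjamini-Hochberg, 41 genes (0.196%) were called between 15-day and 12-day explants, 11 higher (0.0525%) and 30 lower (0.143%). The same test between intact leaves of these ages called 3046 genes (14.5%), 1098 higher (5.24%) and 1948 lower (9.3%), and 4666 genes with the replicate number as a block. It called 24 in a fit on the 6 intact libraries alone, 1158 without replicate 3 of every group, and 1735 or 1670 without 12-day replicate 1 or 3. The median absolute log2 fold change was 0.252 in explants and 0.421 in intact leaves, and 8.30% of genes against 19.8% passed a 2-fold difference. The median standard error was 0.297 log2 units in explants and 0.299 in intact leaves. Both rest on 1 shared estimate of the spread over all 18 libraries, so this likeness does not compare their precision. Without the 2 intact libraries that stand apart, the explant value was 0.237. The number of calls in explants moved with single libraries and with the tool. It was 722 (3.41%) without the 2 intact libraries that stand apart, neither of them an explant, 767 (3.66%) with DESeq2 and 0 in a fit on the 6 explant libraries alone, where 4029 genes had an unadjusted p under 0.05. Without replicate 3 of every group it was 0 too, with 2562 genes at an unadjusted p under 0.05. Without 12-day replicate 1, 2 or 3 it was 0, 24 or 1, and without 15-day replicate 1, 2 or 3 it was 0, 7 or 1. At an unadjusted p under 0.05 the fits with 0 calls held 1995 genes without 12-day replicate 1 and 1628 without 15-day replicate 1. All 41 genes were among the 722, and 40 were among the 767.

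**Figure D1:**
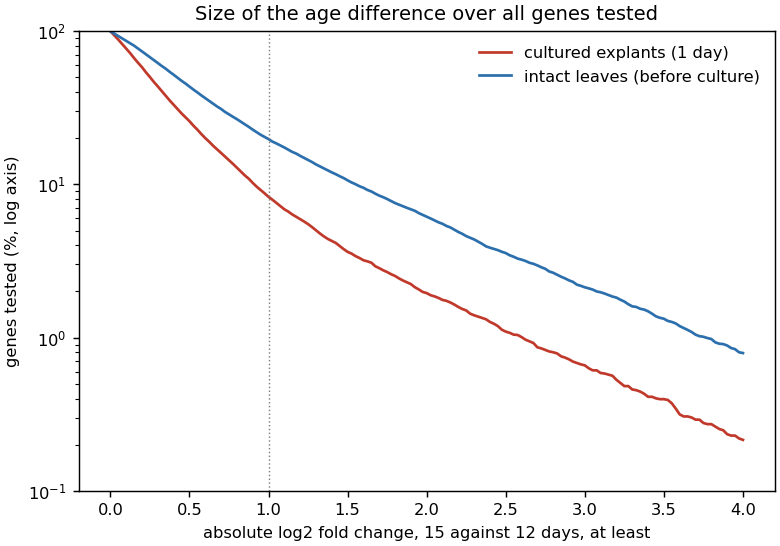
Percent of the genes tested (log axis) whose absolute log2 fold change between 15 and 12 days was at least the value on the horizontal axis, in cultured explants (red) and intact leaves (blue); the dotted line marks a 2-fold difference. At that line 8.30% of genes lie above it in explants and 19.8% in intact leaves.

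Distances between libraries were compared without a test. The root mean square log2 difference between a 12-day and a 15-day explant library was 0.777 on average over 9 pairs, with a range of 0.605 to 0.932. Explant libraries of one age differed by 0.690 on average at 12 days and by 0.587 at 15 days, over 3 pairs each. Between intact leaves of the 2 ages the distance was 1.18 on average (0.997 to 1.66), against 0.932 within 12 days and 1.09 within 15 days. The between-age distances of explants overlapped those within either age, and all 9 lay below the lowest of the intact between-age distances. Intact between-age distances overlapped those within an age too, which reached 1.06 at 12 days and 1.32 at 15 days, both in pairs that held replicate 2. Intact replicates 1 and 3 of one age differed by 0.782 at 12 days and by 0.729 at 15 days. Pairs of these replicates from different ages lay at 0.997 to 1.12, above both values. With replicate 2 included, intact libraries of one age were farther apart on average than explants of different ages. The lower explant distances therefore do not measure the age difference alone.

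**Figure D2:**
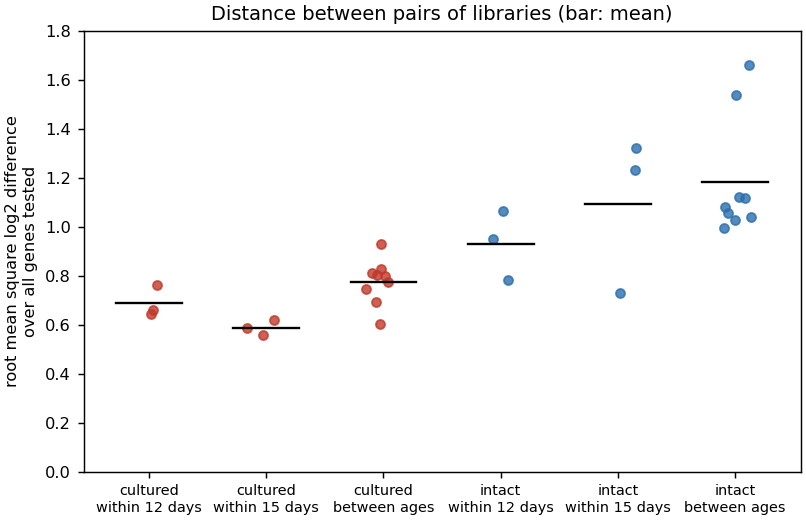
Root mean square log2 difference over all genes tested for each pair of libraries (points) with the mean (bar), for explants (red) and intact leaves (blue). Pairs of explants of different age average 0.777, and pairs of intact leaves of different age 1.18. Intact pairs of one age average 0.932 at 12 days and 1.09 at 15 days, with replicate 2, which stood apart, included.

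The genes that differed between intact leaves were followed into the explants, which share no library with them. Of the 1098 genes higher in intact 15-day leaves, 713 (64.9%) had a positive fold change in explants, against 47.5% of all genes. Of the 1948 lower ones, 1505 (77.3%) had a negative one, against 52.5%. Their median log2 fold change went from 1.1 in intact leaves to 0.14 in explants for the first set and from −1.43 to −0.32 for the second. These medians are not on an equal footing, because the intact values chose the genes. A test of the difference between the 2 age effects called 582 genes (2.78%), 410 in which the 15-against-12-day value was higher in explants (1.96%) and 172 in which it was lower (0.821%). This count ranged from 0 without replicate 3 of every group (2883 genes at an unadjusted p under 0.05) to 1505 (7.11%) without the 2 intact libraries that stand apart. Single libraries moved it too: it was 244, 116 or 248 without 12-day explant replicate 1, 2 or 3 and 156, 180 or 319 without 15-day explant replicate 1, 2 or 3. Without intact 12-day replicate 1, 2 or 3 it was 189, 1227 or 162, and without intact 15-day replicate 3 it was 330. Across genes, the log2 fold changes of explants and intact leaves had a Pearson r of 0.338 over 20952 genes, which are not independent replicates.

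The 30 genes that fell were mostly genes that were also lower in intact 15-day leaves: 29 had the same sign there and 25 were called. Over all genes 9.3% were called lower there. The 29 are 96.7% of them, against 46.6% of all genes. Among the 11 that rose, 6 had the same sign (54.5%, against 53% of all genes) and 3 were called, against 5.24% of all genes called higher. Each gene's spread was estimated once for both tests, so its calls in them are not independent. Among those that rose, TPS10 (AT2G24210, chromosome 2, 10294286 to 10297597, TAIR10.1), a terpene synthase that makes volatile monoterpenes, had 1 count over the 12-day explants and 699 over the 15-day explants. Its CPM values were 9.38, 1.41 and 5.23 at 15 days, a ratio of 564 with a 95% counting interval of 101 to 22300 (adjusted p = 0.0435, edgeR), and its count was 0 in the intact leaves. DESeq2 did not call TPS10 (adjusted p = 0.0915), and 6 of 15 alternative fits called it. JAZ8 (AT1G30135, chromosome 1, 10596352 to 10597341), a repressor of jasmonate responses that lacks the usual degron, was at 0.483, 0.378 and 0.443 CPM at 12 days and at 7.16, 2.27 and 3.97 CPM at 15 days. The groups did not overlap and 15-day replicate 1 was the highest, with a log2 fold change of 3.35 ± 0.61 (SE, n = 3 per age; adjusted p = 0.0435, edgeR).

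HSP17.6II (AT5G12020), a cytosolic small heat shock protein, was at 0.227, 0.378 and 0.413 CPM at 12 days and 6.05, 1.28 and 2.35 CPM at 15 days, a log2 fold change of 3.23 ± 0.56 (adjusted p = 0.036, edgeR). PCR1 (AT1G14880, chromosome 1, 5132506 to 5133860), a membrane protein of the cadmium resistance family, was steadier: 20.9, 24.4 and 18.5 CPM at 12 days against 85.3, 105 and 110 CPM at 15 days. Its log2 fold change was 2.24 ± 0.32 in explants (adjusted p = 0.0188) and 3.05 in intact leaves (adjusted p = 6.66e-05, both edgeR). ELF4-L3 (AT2G06255), a relative of the clock protein ELF4, rose by 1.77 ± 0.26 log2 units from a mean of 1.22 to 4.19 CPM, and was also called in intact leaves. The other named genes that rose were AT5G38710, annotated to the methylenetetrahydrofolate reductase family (4.08), the SAUR-like AT5G50760 (3.59), the 2-oxoglutarate-dependent oxygenase AT1G14120 (2.86), the alpha/beta-hydrolase AT1G68620 (2.61) and the kinase MAPKKK21 (2.27), as log2 fold changes. In 8 of these 10 genes, 15-day replicate 1 held the highest value of the 6 libraries.

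Among the genes that fell, the chitinase family member AT2G43590 was at 141, 39.3 and 117 CPM at 12 days and at 16.4, 6.53 and 9.18 CPM at 15 days. Its log2 fold change was −3.21 ± 0.56 (adjusted p = 0.036, edgeR) in explants and −0.53 (adjusted p = 0.531) in intact leaves, where its 6 values lay between 2.96 and 15.2 CPM. MLP28, a major latex protein-like protein, was at 101, 56.4 and 33.6 CPM against 14.8, 6.66 and 7.63 CPM, a log2 fold change of −2.72 ± 0.45 (adjusted p = 0.0266, edgeR). The glycine-rich protein AT4G29020 fell by 3.00 log2 units, from a mean of 5.24 to 0.652 CPM, and had also fallen by 3.68 in intact leaves. LAX2 (AT2G21050, chromosome 2, 9034056 to 9036636), an auxin influx carrier expressed in leaf veins, was at 6.05, 5.67 and 6.35 CPM at 12 days and 2.03, 2.19 and 3.00 CPM at 15 days. Its log2 fold change was −1.32 ± 0.19 in explants (adjusted p = 0.0188) and −1.40 in intact leaves (adjusted p = 0.000219, both edgeR), and the difference between those values was 0.08 ± 0.26 (adjusted p = 0.91). The remaining named genes that fell ranged from −2.70 for the methyltransferase AT3G21950 to −1.67 for AT5G13140, an extensin family protein, and for AT3G01710, of the TPX2 family of spindle proteins. Between them lay the uncharacterised AT1G11850 (−2.39), DGR2 of the DUF642 family (−1.85), a nucleoside diphosphate kinase family member, AT4G23900 (−1.79), and AT3G18960, of the B3 transcription factor family (−1.74). Among those outside the naming rule, chosen after their values were seen, were HCF136, an assembly factor of photosystem II (−0.69), the thylakoid ascorbate peroxidase TAPX (−0.94) and TGG1, a myrosinase that cleaves glucosinolates (−1.39).

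**Figure D3:**
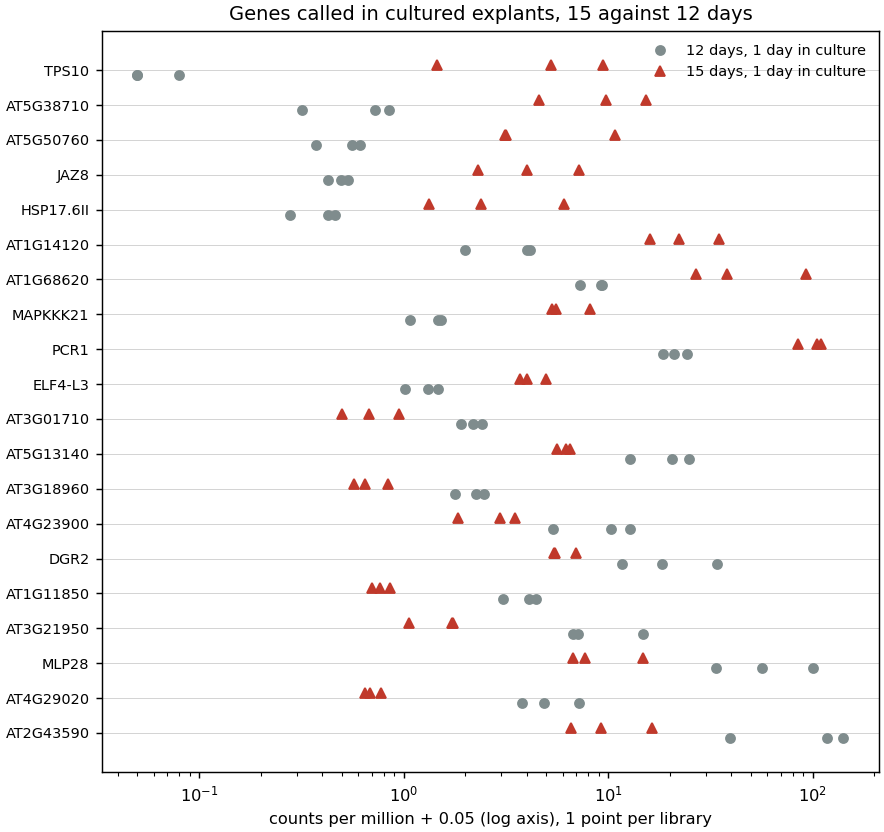
CPM plus 0.05 (log axis) in each explant library for the 20 named genes called between the ages, 12 days in grey circles and 15 days in red triangles. The 2 ages do not overlap in any of the 20 genes, which the naming rule required.

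Gene lists were described by how their members lay, since few passed the test. List counts given without the 2 intact libraries come from a fit that raised the calls over all genes from 41 to 722. Other fits called 0 genes and so 0 list members: on the 6 explant libraries alone, and without replicate 3 of every group. So did the fits without 12-day or without 15-day explant replicate 1. For each list the count of positive or negative members is given, to be read against 47.5% of all genes with a positive fold change and a median over all genes of −0.02, and the count of members whose groups do not overlap against 12.4% of all genes higher and 12.8% lower (25.2% in either direction). Members called in intact leaves are to be read against 5.24% of all genes higher and 9.3% lower. For the difference the shares of all genes were 1.96% higher in explants and 0.821% lower. Where edgeR called few or 0 members, the counts at an unadjusted p under 0.05 (13.3% of all genes) and by DESeq2 (3.66%) stand together here. They were 22 and 15 of 22 ribosomal protein genes, 10 and 3 of 14 nucleolar genes, 23 and 17 of 27 mitosis genes, 1 and 0 of 18 DNA replication genes, and 0 and 0 of 24 histone genes. In photosynthesis they were 21 and 4 of 39 photosystem genes, 6 and 1 of 20 Calvin cycle genes and 4 and 2 of 19 starch genes. In defence and senescence they were 7 and 6 of 16 senescence genes, 8 and 4 of 22 salicylic acid genes, 4 and 3 of 23 jasmonate response genes, 3 and 0 of 15 jasmonate synthesis genes, 1 and 1 of 20 aliphatic and 3 and 0 of 16 indole glucosinolate genes, and 1 and 0 of 25 flavonoid genes. In wounding, hormones and growth they were 0 and 0 of 14 wound factors, 0 and 0 of 8 root founder regulators, 4 and 1 of 15 auxin synthesis, 6 and 1 of 14 auxin transport, 5 and 1 of 17 auxin response and 3 and 2 of 20 cytokinin genes, 6 and 1 of 15 stomatal genes, 1 and 0 of 21 cell wall genes, and 3 and 1 of 14 heat shock genes.

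Genes of the cytosolic ribosome had higher values in 15-day explants. All 22 listed cytosolic ribosomal protein genes had a positive log2 fold change, 20 did not overlap between the ages, and the median was 0.87 with a range of 0.46 (RPL24B) to 1.06 (RPS6A), while 0 passed the test and 10 did without the 2 intact libraries that stand apart (over all genes 1.64% were then called higher and 1.77% lower). Their summed level was 5530, 6260 and 5610 CPM at 12 days and 10900, 10900 and 8600 CPM at 15 days, so that every 15-day explant lay above every 12-day one. RPS6A (AT4G31700, chromosome 4, 15345979 to 15347804), a small-subunit protein whose phosphorylation follows TOR kinase activity, was at 243, 281 and 306 CPM against 616, 591 and 517 CPM, a log2 fold change of 1.06 ± 0.26 (adjusted p = 0.0913, edgeR). In intact leaves the direction was the opposite: the list's median was −0.52 with 5 members called lower, and RPS6A was at −1.32 (adjusted p = 0.00343). The difference between explants and intact leaves was called for 13 of the 22 genes, all higher in explants, RPS6A among them at 2.38 (adjusted p = 0.00641, edgeR). RPL3A, a large-subunit protein, was at 520, 552 and 571 CPM against 1065, 1087 and 990 CPM in explants, where every 15-day library was above every 12-day one (0.94 ± 0.18, adjusted p = 0.0512). The member with the lowest value, RPL24B, was at 0.46 (adjusted p = 0.308). Ribosomal protein, antenna protein and Rubisco genes have near-identical copies between which reads can be split, so values of single copies are uncertain.

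The 14 genes of nucleolar ribosome assembly had 14 positive values, 12 without overlap and a median of 0.69, with 0 called (4 without the 2 intact libraries). FIB2, a fibrillarin that methylates ribosomal RNA, was at 20.0, 20.4 and 18.6 CPM at 12 days and 65.0, 58.0 and 42.5 CPM at 15 days (log2 fold change 1.49 ± 0.50, adjusted p = 0.188, edgeR). At the other end, DIM1A, an rRNA methylase, was at 0.01. In intact leaves this list had a positive median too (0.23), and the difference was called for 0 of its 14 members by edgeR, with the lowest adjusted p at 0.138, for APUM23.

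Genes of cell division were described by phase. Of 27 genes of mitosis and mitotic cyclins, 26 were negative, 23 did not overlap and the median was −1.01; 2 fell by the test and 13 did without the 2 intact libraries. KNOLLE (AT1G08560, chromosome 1, 2709525 to 2711000), the syntaxin that fuses vesicles at the cell plate, was at 8.32, 7.80 and 9.83 CPM at 12 days and 3.57, 3.61 and 5.14 CPM at 15 days, a log2 fold change of −1.07 ± 0.18 (adjusted p = 0.036, edgeR). CDC20.1 (AT4G33270, chromosome 4, 16044169 to 16046937), an activator of the anaphase-promoting complex, was at 4.74, 5.05 and 5.37 CPM against 2.06, 2.19 and 2.58 CPM, a log2 fold change of −1.15 ± 0.18 (adjusted p = 0.0219, edgeR). In both genes every 15-day explant lay below every 12-day one. Of 15 alternative fits, 7 called KNOLLE and 8 called CDC20.1. CYCB1;1, a cyclin of the G2-to-M transition, was at 1.19, 1.08 and 1.86 CPM against 0.660, 0.575 and 0.938 CPM (−0.92 ± 0.31, adjusted p = 0.192). CYCB1;2, shown above among genes chosen to hold an MSA core (it has 4), was at 5.08, 4.37 and 4.90 CPM against 1.37, 2.22 and 2.67 CPM (−1.19 ± 0.24, adjusted p = 0.0552). CYCB1;3 was at 2.67, 2.32 and 2.69 CPM against 0.977, 1.2 and 1.19 CPM (−1.18 ± 0.29, adjusted p = 0.0943, all edgeR). Neither cyclin overlapped between the ages.

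In intact leaves the median of the mitosis list was −2.49 and 25 of 27 members were called lower. For 11 members the difference was called, each nearer to 0 in explants: KNOLLE at 1.56 (adjusted p = 0.011), CDC20.1 at 1.91 (adjusted p = 0.00328) and CYCB1;1 at 2.29 (adjusted p = 0.0308, all edgeR). The summed level of the list was higher in explants than in intact leaves at both ages. It was 93.5, 85.0 and 89.3 CPM in 12-day explants and 42.4, 50.2 and 54.7 CPM in 15-day explants, against 59.6 to 71.2 CPM in intact 12-day and 13.7 to 15.4 CPM in intact 15-day leaves.

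Genes of DNA replication and the core histones act in S phase. Of 18 replication genes 16 were positive, with a median of 0.24 and a range of −0.18 (E2FB, a transcription factor of the cycle) to 0.52 (RNR2A, a ribonucleotide reductase subunit). Their summed level was 249 to 303 CPM at 12 days and 318 to 377 CPM at 15 days in explants. In intact leaves the list's median was −1.43 with 12 members called lower, and the difference was called for 1 member. The 24 core histone genes had a median of −0.07, 8 positive and 16 negative values and 1 without overlap, and their sums overlapped at 1310 to 1430 against 1040 to 1510 CPM. In intact leaves their median was −1.17 with 14 called lower, and 8 members were called higher in the difference. One of them, the histone H3 gene AT5G10390, was at 21.9, 21.1 and 15.5 CPM against 28, 26.2 and 17.3 CPM in explants and was lower by 2.32 log2 units in intact leaves (adjusted p = 0.00223, edgeR); its difference was 2.61 (adjusted p = 0.0307). Histone copies are near-identical, so reads shared between them make single histone values uncertain. Of the replication genes and histones 0 passed the edgeR test in explants, also without the 2 intact libraries.

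**Figure D4:**
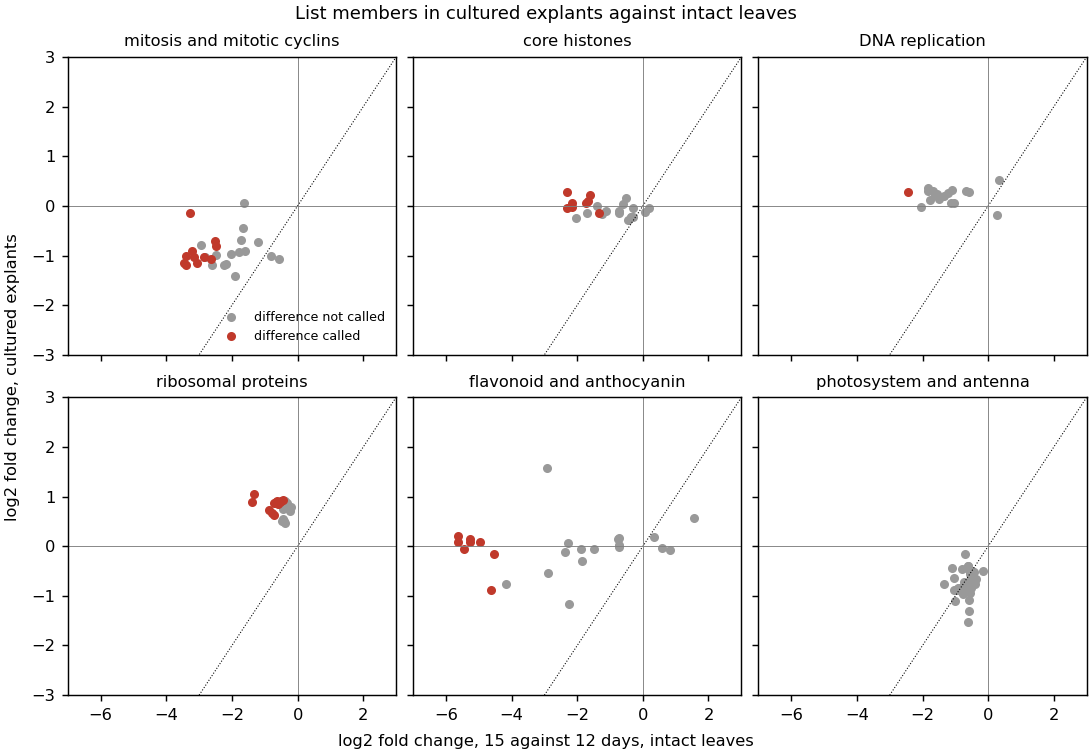
Log2 fold change between 15 and 12 days in explants (vertical) against intact leaves (horizontal) for the members of 6 lists; the dotted line marks equal values and red points are members whose difference was called (11 of 27 for mitosis, 8 of 24 for core histones, 1 of 18 for DNA replication, 13 of 22 for ribosomal proteins, 8 of 25 for flavonoids, 0 of 39 for photosystems).

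Photosynthesis genes had lower values in 15-day explants. All 39 nuclear genes of photosystems and antenna proteins were negative, 26 without overlap, with a median of −0.76; 0 passed the test and 2, PSBQ1 and PSBQ2 of the oxygen-evolving complex, did without the 2 intact libraries. The summed level was 65900, 48800 and 40000 CPM at 12 days and 22700, 32700 and 33000 CPM at 15 days. LHCB4.2, an antenna protein of photosystem II, had the lowest value of the list, with 3099, 2007 and 1251 CPM against 361, 743 and 1097 CPM (−1.53 ± 0.56, adjusted p = 0.223, edgeR), and ferredoxin FD2 the highest, at −0.15. The library with the highest sum also had the highest touch genes, 1.58 log2 units above its group mean at the median; its part in the result was not tested. In intact leaves the median was similar, −0.60 with 9 called lower, and the difference was called for 0 of the 39 genes, the lowest adjusted p being 0.255 for PSBQ1.

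The Calvin cycle list had 18 of 20 negative values, 11 without overlap, and a median of −0.37, with 0 called. GAPA2, a glyceraldehyde-3-phosphate dehydrogenase, was lowest with 1316, 1239 and 1031 CPM against 598, 823 and 713 CPM (−0.75 ± 0.22, adjusted p = 0.135), and the Rubisco gene RBCS1B highest at 0.31. RBCS1A was at −0.37 ± 0.23 in explants (adjusted p = 0.549, edgeR) and at −1.37 in intact leaves (adjusted p = 0.00138). Starch genes had 18 of 19 negative values with a median of −0.43, from PWD, which phosphorylates starch for breakdown (−0.81), to the beta-amylase BAM5 (0.78, overlapping).

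Defence and senescence genes lay on the higher side. Leaf senescence genes had 15 of 16 positive values, 9 without overlap, and the largest median of the 24 lists described, 1.32, with 0 called and 5 called without the 2 intact libraries. Their median in intact leaves was larger, 1.94, with 6 members called higher. The difference was called for 2 members, both lower in explants. JUB1, a NAC factor that extends leaf life span, was at 1.65, 2.38 and 2.27 CPM at 12 days and 39.1, 7.68 and 12.9 CPM at 15 days (3.24 ± 0.70, adjusted p = 0.0775, edgeR). SAG13, an early senescence marker, was at 27.4, 116 and 134 CPM against 1153, 342 and 431 CPM (2.80 ± 0.69, adjusted p = 0.0943). Both were highest in 15-day replicate 1. BFN1, a nuclease of dying cells, was the exception at −1.38 with overlapping groups. It was at 5.73 CPM in 12-day replicate 3 and at 0.924 to 1.565 CPM in the other explants. The late marker SAG12 had 0 counts in all 12 libraries of the 2 ages.

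ORE1, a NAC factor that promotes senescence, overlapped in explants (3.01, 15.6 and 8.27 against 21.8, 35 and 11.3 CPM) and was called higher in intact leaves by 3.1 log2 units (adjusted p = 0.012, edgeR). Its close relative ORS1 was all but silent in intact 12-day leaves, at 0 to 0.0784 CPM, and stood at 11.3 to 27.8 CPM in intact 15-day leaves. In explants ORS1 was at 0.965, 0.405 and 0.738 CPM at 12 days and 2.19, 2.46 and 1.71 CPM at 15 days, and the difference between explants and intact leaves was −6.89 (adjusted p = 0.00214, edgeR).

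Salicylic acid and immunity genes had 21 of 22 positive values, 12 without overlap and a median of 0.77; 0 passed the test and 4 did without the 2 intact libraries. PR1, the classical salicylate marker, was at 16.2, 34.7 and 54.9 CPM against 210, 127 and 169 CPM (2.26 ± 1.09, adjusted p = 0.39), and the glucanase PR2 at 66.2, 206 and 231 CPM against 1308, 461 and 1406 CPM (2.66 ± 0.93, adjusted p = 0.205, both edgeR). NPR1, the salicylate receptor, lay at the other end at −0.05. The summed level of the list was 736 to 830 CPM at 12 days and 1450 to 2670 CPM at 15 days. Its median in intact leaves was 0.25 with 1 member called lower, and the difference was called for 2, both higher in explants.

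Jasmonate response genes had 20 of 23 positive values, 11 without overlap and a median of 0.69, and JAZ8 was the 1 member called. Their median in intact leaves was −0.09 with 1 called lower, and the difference was called for 2, both higher in explants. VSP2, a storage protein induced by jasmonate, was at 588, 614 and 711 CPM against 1372, 774 and 1825 CPM (1.05 ± 0.67, adjusted p = 0.563, edgeR). Jasmonate synthesis genes had 9 of 15 positive values and a median of 0.12. The ends of that list were AOC4, an allene oxide cyclase, at −1.0 and the lipase gene DGL at 3.15, the latter from at most 1.77 CPM.

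Glucosinolates are the sulphur-containing defence compounds of crucifers. Aliphatic glucosinolate genes had 19 of 20 positive values with a median of 0.65 and 4 without overlap, from the regulator MYB28 (−0.36) to CYP79F2, a cytochrome P450 of the pathway (1.33). Indole glucosinolate and camalexin genes had 14 of 16 positive values and a median of 0.75, from the myrosinase PEN2 (−0.09) to CYP71A13 of camalexin synthesis (2.6). No member of either list passed the test, and without the 2 intact libraries the indole gene CYP79B2 was called higher (adjusted p = 0.0473, edgeR). Medians in intact leaves were −0.50 (aliphatic) and 1.04 (indole), and the difference was called for 0 members of either list.

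**Figure D5:**
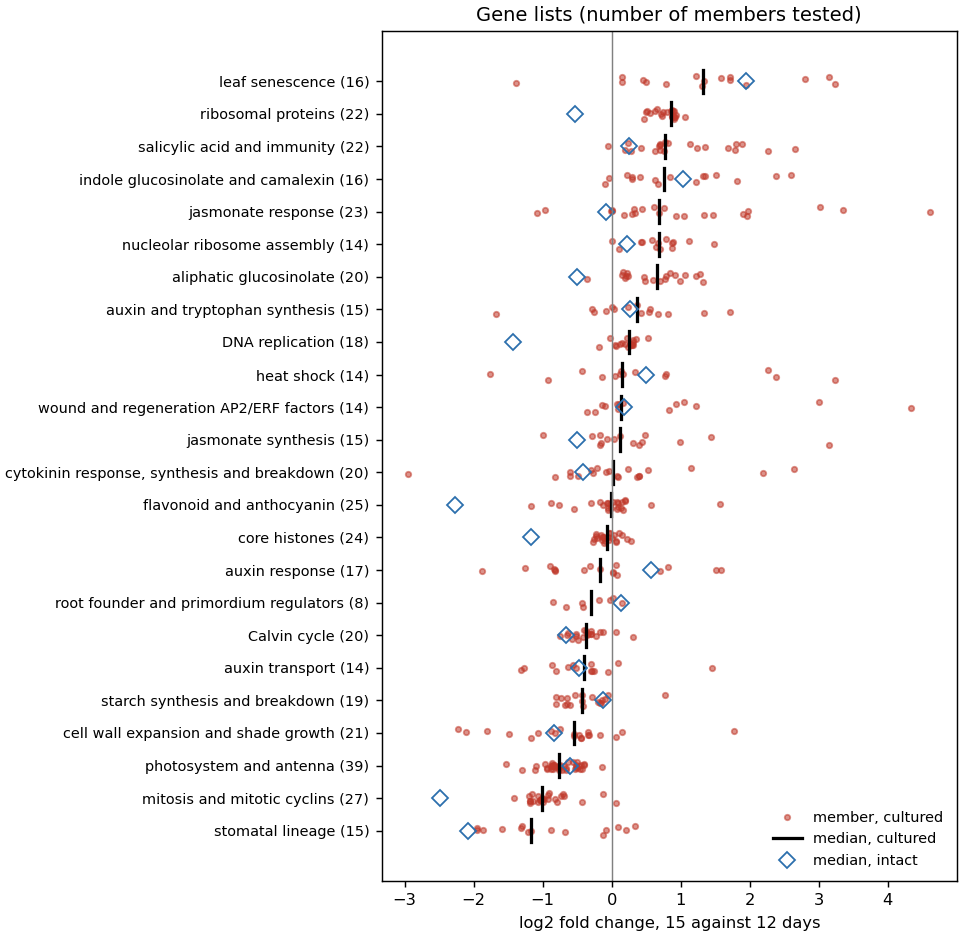
Log2 fold change between 15 and 12 days in explants for every tested member of the 24 lists described (red points) with the list's median (black bar) and the median of the same members in intact leaves (blue diamond). Senescence and ribosomal protein genes have the highest medians in explants (1.32 and 0.87), stomatal and mitosis genes the lowest (−1.17 and −1.01), but the stomatal median was −0.51 without 12-day replicate 3.

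Flavonoid and anthocyanin genes lay near 0 in explants and had a negative median in intact leaves. In explants 12 of 25 were positive and 13 negative, with a median of −0.02, and the sums overlapped at 6120 to 9060 CPM (12 days) and 6190 to 9440 CPM (15 days). In intact leaves the median was −2.27 with 12 called lower. The intact sums overlapped, at 1290, 363 and 515 CPM at 12 days and 366 to 473 CPM at 15 days. The highest sum was that of 12-day replicate 1. DFR, the reductase that leads into anthocyanins, was at 646, 830 and 659 CPM in 12-day explants and at 584, 895 and 567 CPM in 15-day explants, a log2 fold change of −0.06 ± 0.85. In intact leaves it was at 70.5, 1.28 and 7.57 CPM and then at 0.230, 0.964 and 0.611 CPM (−5.44, adjusted p = 0.0036), and its difference was 5.38 (adjusted p = 0.044, edgeR). The difference was called for 8 members, all higher in explants. The regulator PAP1, which activates anthocyanin genes, overlapped between the ages (185, 186 and 211 against 159, 193 and 182 CPM). MYB12, an activator of flavonol genes, was lowest at −1.16 and MYB113, an anthocyanin regulator, highest at 1.57, neither called.

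Among genes linked to wounding and root formation, the wound, root founder and auxin synthesis lists had 0 calls between the ages by edgeR. Without the 2 intact libraries ABR1 (adjusted p = 0.0174) and ASA1 (adjusted p = 0.0218) were called higher. The wound AP2/ERF list had 10 of 14 positive values, 3 without overlap and a median of 0.13. ERF115, a wound-induced regulator of stem cell division, was at 1.05, 1.32 and 1.03 CPM against 1.51, 0.758 and 1.39 CPM (0.10 ± 0.36, adjusted p = 0.97, edgeR), which leaves a 95% interval of −0.71 to 0.91 log2 units. ABR1, a repressor of abscisic acid responses, had the highest value of the list (4.33, from at most 2.32 CPM) and PLT5, a PLETHORA factor, the lowest (−0.36). ERF109, an early jasmonate-responsive factor, ranged from 0.0886 to 2.61 CPM at 12 days and from 0.370 to 21.1 CPM at 15 days.

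The 8 tested regulators of root founder cells and primordia had 2 positive and 6 negative values and a median of −0.30, all overlapping. WOX11, which marks root founder cells, was at 0.227, 0.270 and 0.118 CPM against 0.0792, 0.340 and 0.0541 CPM, and LBD16 at 1.53, 1.13 and 1.45 against 1.56, 1.18 and 0.884 CPM. The lowest was GATA23 (−0.85) and the highest LBD18 (0.15). In auxin and tryptophan synthesis 11 of 15 were positive with a median of 0.37. ASA1, the first enzyme of tryptophan synthesis, was at 40.7, 34.6 and 52.6 CPM against 149, 65.6 and 110 CPM (1.34 ± 0.34, adjusted p = 0.0998), without overlap. YUC2 was at 0.03 ± 0.40, YUC5 and YUC8, of the same auxin-forming family, at −1.68 and 1.72 with overlapping groups.

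Of 14 auxin transport genes 12 were negative, 8 without overlap, with a median of −0.41, and LAX2 was the 1 called. The 17 auxin response genes had a median of −0.17, between IAA29 (−1.87) and GH3.3, which conjugates auxin (1.59). Cytokinin genes were balanced, 10 of 20 positive with a median of 0.02. CKX5, a cytokinin oxidase, was at 1.90, 1.70 and 3.72 CPM against 20.4, 6.06 and 19.1 CPM (2.64 ± 0.55, adjusted p = 0.0641, edgeR), and IPT5, of cytokinin synthesis, had 15 counts over the 12-day and 2 over the 15-day explants, a ratio of 0.108 (95% counting interval 0.0119 to 0.463). The response regulator ARR5 overlapped, at 0.823, 0.864 and 0.531 against 0.423, 0.993 and 1.43 CPM.

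Among growth genes, the cell wall and shade growth list had 18 of 21 negative values, 7 without overlap and a median of −0.54, from the expansin EXPA8 (−2.23) to XTH24 (1.77). The stomatal lineage list had 12 of 15 negative values, 3 without overlap, and a median of −1.17 that became −0.51 without 12-day replicate 3 and −0.68 in a fit on the 6 explant libraries. SDD1, a protease that limits stomatal number, was lowest (−1.95, overlapping, and −0.24 to −2.89 under the alternatives) and the receptor kinase ERL2 highest (0.34). SPCH, which starts the lineage, had 10 counts over 12-day and 3 over 15-day explants, a ratio of 0.242 (95% counting interval 0.0428 to 0.940). The summed level of the list overlapped, at 77.1 to 104 CPM in 12-day and 73.7 to 89.4 CPM in 15-day explants. Its median in intact leaves was −2.08 with 8 members called lower, and the difference was called for 0. The heat shock list had 10 of 14 positive values and a median of 0.15, with HSP17.6II its 1 called member.

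Of the markers of vegetative age, SPL9 and SPL10 were not called by edgeR. The phase change factor SPL9 was at 6.45, 2.86 and 3.42 CPM against 2.88, 2.43 and 2.17 CPM (−0.77 ± 0.60), and SPL10 at 9.11, 7.72 and 8.65 CPM against 4.46, 5.46 and 6.89 CPM (−0.60 ± 0.27, adjusted p = 0.359, edgeR), the latter without overlap. The clock gene CCA1 (−0.02), the dehydration gene RD29A (0.00), the peroxidase PRX52 (0.08) and the dark-inducible SEN1 (−0.36) overlapped between the ages. GRF5, a promoter of leaf cell division, had at most 1 count in a library and was not tested.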

How the data were processed

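Polyadenylated RNA of first-pair leaves was measured in 18 libraries, 3 in each of 6 groups. The series' design text speaks of duplicates, while the titles number 3 libraries per group and replicate 3 carries differently named label fields, so fits without replicate 3 are given. Reads were trimmed with Trimmomatic, mapped with STAR 2.5.3 and quantified with RSEM 1.3.0 against TAIR10, per the submitters' processing notes. The values used are the expected counts per gene that the authors deposited, estimated counts that divide reads between similar copies. The TPM and FPKM columns were not used, and no source used here states the use of strand. Totals were 29664089 to 51126114 per library.

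Expected counts were rounded and tested in R 4.3.3 with edgeR 4.0.16 (TMM scaling, filterByExpr with a minimum count of 10, quasi-likelihood F test, 1 mean per group over all 18 libraries, Benjamini-Hochberg over 20952 genes, threshold 0.05). Contrasts were 15 minus 12 days in explants, in intact leaves, and the difference of these. CPM used TMM library sizes, and the procedure was tested on simulated data. Alternatives were DESeq2 1.42.0, RLE scaling, other filters, a replicate block, a term for replicate 3, fewer libraries and each library left out. In intact leaves same-numbered libraries deviated together (r = 0.34, 0.683 and 0.255), so the numbers were taken to pair them there. But intact 12-day replicate 1 and 15-day replicate 3 had r = 0.518, above the values of replicates 1 and 3, so this pairing is uncertain. Pairing required every r to be over 0.1, and in explants replicate 1 had −0.189 (0.426 and 0.254 for the others).

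Named genes were up to 10 called in each direction with at least 2 CPM on average in the higher group and no overlap, up to 4 called members of each list described or else its highest and lowest, up to 5 in each direction of the difference, and 24 fixed genes. The 44 lists and the groups compared were chosen with earlier results of these data known. Symbols and coordinates came from the RefSeq annotation of TAIR10.1, in which 37390 of 37686 loci matched. Lengths in the deposited tables matched that annotation within 0.5 bases for 99.1% of 16746 genes compared. Counting intervals are exact, at 95%, and cover counting error only.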

Additional observations from a re-analysis of the deposited data

Results flagged for a closer look

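The age effect differed between explants and intact leaves for 582 genes (2.78%) by edgeR's test of the difference with Benjamini-Hochberg adjustment. The named genes among them are given as log2 differences, explants minus intact leaves. Higher in explants were AT1G14120 (2.99), MAPKKK21 (3.17), JAZ8 (3.73), RPS6A (2.38), the histone H3 gene AT5G10390 (2.61), KNOLLE (1.56), CDC20.1 (1.91), CYCB1;1 (2.29) and DFR (5.38). ORS1, a NAC factor of senescence, was lower in explants (−6.89), a size that rests on intact 12-day leaves with at most 0.0784 CPM.

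Other large differences, like that of ORS1, rest on a group at or near 0, where the fitted size depends on the prior count. AT5G28237, of a pyridoxal phosphate enzyme family, was at 0.0270 to 0.142 CPM in 12-day and 2.66 to 15.9 CPM in 15-day explants, and at 0.295 to 1.93 CPM in intact leaves of both ages (7.46, adjusted p = 0.0297, edgeR). The stay-green-like AT4G11911 was at 0.108 to 1.06 against 1.02 to 3.88 CPM in explants, which overlapped, and at 0 to 0.0328 CPM in intact 15-day leaves (6.21). CYP81F4, a cytochrome P450 of indole glucosinolate modification, was at 1.03 to 2.6 against 3.19 to 12.7 CPM in explants and at 0 in every intact 15-day library (8.93).

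ATCSLA15, a glycosyltransferase family member, overlapped in explants and in intact leaves stood at 1.07 to 11.8 CPM at 12 days and 0.0643 to 0.147 CPM at 15 days (6.71). AT4G02850, of the PhzC/PhzF family, was at most 0.108 CPM in explants and fell in intact leaves from 1.52 to 6.59 CPM to at most 0.0733 CPM (6.25).

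In the opposite direction, AT3G22560, an acyltransferase family member (−5.91), and DAA1, a nucleoside triphosphate hydrolase family member (−7.61), overlapped between the ages in explants. Both were near 0 in intact 12-day leaves, at most 0.0784 and 0.0575 CPM, and reached 5.11 and 11.9 CPM at 15 days. BGLU17, a beta-glucosidase, overlapped in explants at 0.0784 to 0.856 CPM and was at 0.984 to 6.82 CPM in intact 15-day leaves (−5.38). The peroxidase Prx37 was at 6.50 to 40.2 CPM in 12-day and 1.28 to 5.78 CPM in 15-day explants, without overlap, and had 0 counts in intact 12-day leaves. In intact 15-day leaves it was at 0.0656, 1.35 and 0.0733 CPM, and its difference was −9.76, where replicate 2 is one of the 2 intact libraries that stand apart. Without those 2 libraries its difference was not called (adjusted p = 0.253, edgeR). The same held for MAPKKK21 (adjusted p = 0.069), AT5G28237 (adjusted p = 0.0509), AT4G11911 (adjusted p = 0.0767) and CYP81F4 (adjusted p = 0.0584).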

How the results depend on the processing

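The count in explants (41) became 271 with the replicate block, 292 with the replicate 3 term, 722 without the 2 intact libraries that stand apart, 767 with DESeq2 and 0 in the fit on the 6 libraries compared only (4029 at an unadjusted p under 0.05), and 0 to 24 with libraries left out. The count in intact leaves (3046) became 4666 with the block and 24 with the 6 libraries only, and 1158 to 4349 with libraries left out (1735 without 12-day replicate 1 and 1670 without 12-day replicate 3). The count of the difference (582) became 1442 with the block, 1272 with the replicate 3 term, 1505 without those 2 libraries and 1476 with DESeq2, and 0 to 1227 with libraries left out. The cause was not tested. Other scaling and filters kept each count within 1.5 times. In explants same-numbered libraries had deviations with r of −0.189, 0.426 and 0.254, and the block there is a hint only. In intact leaves 12-day replicate 1 and 15-day replicate 3 had an r of 0.518, so the block is uncertain there too.

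The 23 named genes called in explants kept their direction in 344 alternative values and their call in 173. For the 72 not called, 54 of 1062 values changed sign, all in genes near 0 or with a wide error. These were DIM1A (−0.00084 without the filter, −0.0069 without the 2 libraries, −0.14 to 0.14 with libraries left out), RD29A (−0.0067 without the filter, −0.00081 at a minimum count of 50, −0.0012 with the block, −0.013 without the 2 libraries, −0.0013 with 6 libraries, −0.15 to 0.15 with libraries left out), CCA1 (0.10 with the block, 0.097 with the replicate 3 term, −0.49 to 0.18) and SEN1 (0.11, 0.20, −0.99 to 0.57). With libraries left out only, the ranges were −0.24 to 0.70 for ARR5, −0.24 to 1.16 for AT4G02850, −0.29 to 1.35 for DAA1, −0.31 to 0.056 for DFR, −0.74 to 6.04 for ERF109, −0.083 to 0.34 for ERF115, −0.31 to 0.016 for FD2, −0.43 to 0.049 for LBD16, −0.19 to 1.46 for LBD18, −0.14 to 0.099 for NPR1, −0.23 to 0.079 for PEN2, −0.18 to 0.27 for PRX52, −1.61 to 0.026 for WOX11, −0.20 to 0.55 for YUC2 and −2.26 to 0.56 for YUC5.

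Of list medians, those of ribosomal proteins (0.75 to 0.96), mitosis (−1.15 to −0.87), photosystems (−0.87 to −0.57) and senescence (1.14 to 1.55) kept their sign under 15 alternatives. The flavonoid median (−0.13 to 0.14) changed sign under 6, that of cytokinin genes under 3, those of core histones, wound AP2/ERF and jasmonate synthesis genes under 2 each and that of auxin response genes under 1. The stomatal median ranged from −1.35 to −0.51. With 3 libraries per age and a median standard error of 0.297, differences of the median size (0.252) were not detectable.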
